A study of Mus musculus with 192 samples.

Results

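The genes described here were 10 targets of the transcription factor p53 (Cdkn1a, Mdm2, Ccng1, Bax, Bbc3, Phlda3, Eda2r, Zmat3, Trp53inp1 and Aen), taken by name as a set that answers radiation and DNA breaks, out of 54752 genes measured. RNA-seq had been carried out on 9 tissues of male C57BL/6J mice that were wild type (WT) or carried a germline knockout of Nrf2 (KO, the gene Nfe2l2, which encodes a transcription factor of the oxidative stress response). The labels give an age of 12 weeks, which by the study's methods was that before launch. Flight mice (FL) had lived for about a month on the International Space Station. They were dissected after splashdown, transport to a laboratory and behavioural tests. Ground control mice (GC) were kept later in the same year in the same kind of cages in Japan. Flight, the return to Earth, place and date therefore cannot be told apart. The 4 groups were GC_WT, FL_WT, GC_KO and FL_KO, and every KO mouse came from 1 knockout line. The 2 bones were the mandible (MdB) and the temporal bone (TpB), and the 2 fat depots were white fat of the epididymis (eWAT) and brown fat from between the shoulder blades (iBAT). The lymphoid organs were thymus (Thy) and spleen (Spl), and the other tissues were kidney (Kid), liver (Liv) and cerebrum (Cbr). Each group had 6 mice, or 3 in MdB and Kid. Flight mouse 04, a KO animal that had an intestinal hemorrhage, was left out of 8 tissues, which left 5 FL_KO mice, or 2 in MdB, while all 3 FL_KO mice of Kid were kept. A flight mouse and a ground mouse that share a number are different animals.

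The libraries of 8 tissues held 13110740 to 16308175 estimated read counts (161 libraries), and the 23 thymus libraries, made by ribosomal RNA depletion and not by poly(A) selection, held 8007523 to 10564704. Nfe2l2 itself was lower in KO than in WT mice in all 9 tissues on the ground, from −0.25 on the log2 scale in Spl to −1.81 in Cbr (edgeR's quasi-likelihood test, largest Benjamini-Hochberg adjusted p = 0.00169), and likewise in flight, from −0.26 in Spl to −1.83 in Cbr (largest adjusted p = 0.000882). Reads counted to Nfe2l2 remained in KO mice, and where in the gene they fall was not examined. The brain tissue is called cerebellum in the series text, but the median TPM of the cerebellar markers Gabra6 and Pcp2 was 0 that of Cbln3 was 0.17 and that of Cbln1 was 14.1 (8.89 to 31.3), while the cortical genes Slc17a7 and Neurod6 stood at 515 and 54.2 TPM. In iBAT, the summed TPM of skeletal muscle markers was 9362 in FL_KO mouse 11, 7641 in FL_WT mouse 6 and 3671 in FL_WT mouse 8, against at most 77.0 in every other mouse, and the iBAT results are therefore given also without these 3 libraries. The TpB libraries held brain and muscle transcripts in uneven amounts. Over single mice Pcp2 ran from 0 to 748 TPM, Slc17a7 from 26.8 to 301 and the muscle sum from 402 to 30007. Levels and spreads in TpB are therefore those of a mixed tissue.

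p53 is a transcription factor that is held at a low level by Mdm2, a ubiquitin ligase that is also its target gene, and that is stabilised when DNA strands break. It then raises genes that stop the cell cycle, above all Cdkn1a, and genes that lead to apoptosis, among them Bax and Bbc3. Lymphoid cells of the thymus and spleen are known for a strong apoptotic answer to radiation, and several of the targets are also transcribed without p53.

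The p53 half-site is a decamer in which a central C and G, separated by A or T pairs, are flanked by purines on one side and pyrimidines on the other, and a full site holds 2 decamers. Promoter sequences of RefSeq (GRCm38.p6, 250 bases before to 50 after a start site) were searched for exact matches to the decamer consensus, which is palindromic, so that 1 search covers both strands. A decamer stood in 2745 of 32851 promoters (8.36%). Counted by gene, it stood in 2582 of 27025 genes (9.55%) and in 5 of the 8 target genes that had a promoter sequence (Cdkn1a, Mdm2, Ccng1, Bax and Aen). A pair of decamers with a spacer of at most 13 bases stood in 24 of all promoters (0.0731%). By gene it was 20 of all genes (0.074%), and of the 8 target genes only Cdkn1a, the most studied target. The decamer of Aen (GGGCTTGTCC) begins 121 bases before 1 start site and 10 bases after the other, and its window is left out. The windows below hold these decamers (capitals) in Cdkn1a, Mdm2, Ccng1 and Bax, genes of arrest, feedback and apoptosis that the results describe. They are written 5′ to 3′ on the strand of the gene, and the position of the decamer's first base is counted from the start site.
Cdkn1a, 73 bases before the start, chr17:29090896-29090925, plus strand: tcctgggtggGGACTAGCTTtctggccttc
Cdkn1a, 51 bases before the start, chr17:29090918-29090947, plus strand: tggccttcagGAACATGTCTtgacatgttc
Mdm2, 186 bases before the start, chr10:117710925-117710954, minus strand: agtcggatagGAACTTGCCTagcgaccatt
Ccng1, 185 bases before the start, chr11:40755452-40755481, minus strand: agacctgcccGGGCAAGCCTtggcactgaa
Bax, 201 bases before the start, chr7:45467080-45467109, minus strand: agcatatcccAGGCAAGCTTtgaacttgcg
The entries of Phlda3, Bbc3 and Eda2r and that of a second Cdkn1a start held no such decamer in this window. A match of letters is a description and does not show that p53 was bound.

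The 10 genes lie on 8 chromosomes (GRCm38, GENCODE annotation). Cdkn1a is at chr17:29090976-29100727 on the plus strand, Mdm2 at chr10:117688875-117710758 on the minus strand, Ccng1 at chr11:40748552-40755311 on the minus strand and Bax at chr7:45461697-45466898 on the minus strand. Bbc3 is at chr7:16308393-16318205 and Aen at chr7:78895854-78911209, both on the plus strand. Phlda3 is at chr1:135766119-135769136 on the plus strand, Zmat3 at chr3:32334792-32366014 on the minus strand, Trp53inp1 at chr4:11156431-11174379 on the plus strand and Eda2r at chrX:97333840-97377216 on the minus strand. An exon of Cdkn1a overlaps the antisense transcript AC167363.2 and an exon of Bax overlaps the protein-coding gene Gm45808 on the same strand, so that reads of these 2 target genes may be shared with a neighbour.

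The level of the p53 targets depended on the tissue, here in transcripts-per-million (TPM), which are scaled for gene length and to a fixed total in each library. Thymus libraries were made by another method, so its levels beside those of other tissues carry that difference. Cdkn1a, which encodes the inhibitor p21 of cyclin-dependent kinases, was highest in mandibular bone with a median of 316 TPM over 11 mice (266 to 379), apart from the next tissue. It was followed by iBAT (92.1), TpB (79.5), eWAT (43.5), Cbr (27.0), Liv (13.2), Spl (8.81), Kid (7.86) and Thy (2.96), and each of these overlapped its neighbour in the order over single mice. Trp53inp1, which encodes a stress protein that acts with p53, was distributed differently, with the highest median in thymus (212 TPM, 155 to 287) and then in spleen (94.1), each apart from the next tissue, and lowest in Cbr (6.22).

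Phlda3, an inhibitor of the kinase Akt, was highest in eWAT (median 282 TPM), followed by iBAT (122) and MdB (101, apart from TpB), and was at 0.58 TPM in liver. Zmat3, an RNA-binding zinc finger protein, was highest in Cbr (32.3) and lowest in iBAT (1.46). Mdm2 (64.8 TPM), Bax, a pore-forming protein of mitochondria (80.8 TPM), Bbc3, the BH3-only protein PUMA (12.4 TPM), and Aen, an apoptosis-enhancing nuclease (34.6 TPM), all had their highest median in spleen. In each case the spleen overlapped the next tissue over single mice. Ccng1, cyclin G1, was highest in eWAT (79.5) and lowest in liver (14.3, apart from Thy at 35.6). Eda2r, a receptor of the tumour necrosis factor receptor family, was close to the detection limit, with a median of 1.5 TPM in TpB and at most 0.66 in the other tissues. In Cbr, Kid, MdB and Thy, Eda2r had 1 to 12 counts per library and could not be tested, so 86 of 90 pairs of gene and tissue entered the tests. Trp53, the gene of p53 itself, ranged from 4.92 to 13.2 TPM in iBAT to 164 to 195 TPM in spleen, and passed the test in no tissue and no comparison.

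**Figure D1:**
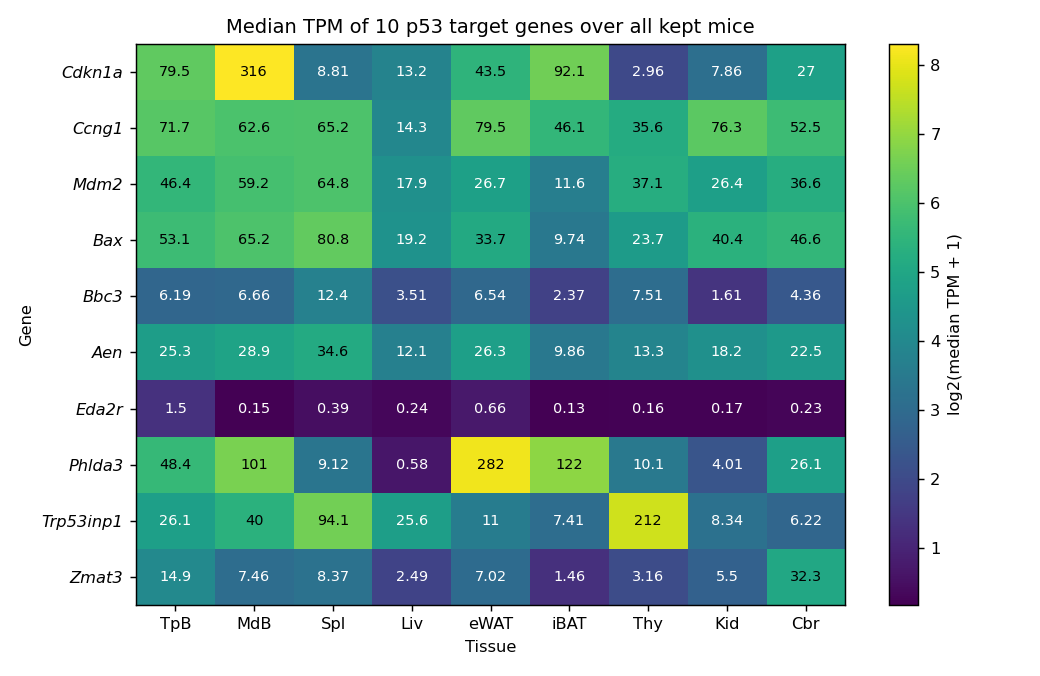
Median TPM of the 10 p53 target genes (rows) in 9 tissues (columns) over all kept mice of the 4 groups, printed in each cell and coloured by log2(median TPM + 1). Cdkn1a is highest in MdB (316 TPM), Trp53inp1 in Thy (212) and Phlda3 in eWAT (282), and Eda2r has the lowest value of the 10 in every tissue.

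The genes also differed in how much mice of 1 group varied. Over tissues in which a gene averaged at least 5 TPM, the median coefficient of variation within a group was 7.76% for Mdm2, 8.87% for Zmat3, 10.2% for Bax, 10.6% for Ccng1 and for Aen, 17.1% for Phlda3, 20.3% for Bbc3, 21.7% for Trp53inp1 and 22.7% for Cdkn1a. Over these tissues the widest spreads were those of Cdkn1a in liver (56.0%), Bbc3 in eWAT (47.5%), Trp53inp1 in liver (47.4%) and Cdkn1a in eWAT (39.6%). Below 5 TPM, Bbc3 in liver varied by 51.7% and Eda2r by up to 80.2% (in iBAT, at a mean of 0.163 TPM).

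The TPM of Cdkn1a in each group were as follows. In MdB the mice stood at 266, 271 and 363 TPM in GC_WT, at 316, 321 and 379 in FL_WT, at 290, 323 and 360 in GC_KO, and at 292 and 297 in FL_KO. In iBAT the lowest, median and highest mouse were 68.8, 88.8 and 123 TPM in GC_WT, 40.0, 83.5 and 117 in FL_WT, and 56.4, 92.5 and 119 in GC_KO, and the FL_KO mice had 47.2, 57.0, 93.0, 131 and 157. In TpB they were 65.1, 81.3 and 93.3 in GC_WT, 67.1, 78.8 and 115 in FL_WT, and 63.6, 81.7 and 120 in GC_KO, with FL_KO mice at 61.1, 73.1, 78.2, 84.2 and 99.5. All 4 groups overlapped in iBAT and TpB. In MdB the 3 FL_WT mice were above the 2 FL_KO mice, a difference that was not called, and the other groups overlapped. In Cbr the 3 groups stood at 22.1, 33.7 and 38.3 TPM (GC_WT), 24.0, 25.7 and 32.1 (FL_WT) and 22.6, 32.8 and 55.4 (GC_KO), and the FL_KO mice at 23.8, 25.0, 25.7, 38.2 and 42.2. In Spl they stood at 7.59, 9.34 and 11.6 (GC_WT), 7, 9.29 and 11.4 (FL_WT) and 7.46, 8.04 and 10.9 (GC_KO), and the FL_KO mice at 8.35, 8.39, 8.80, 9.98 and 10.96. Here too every group overlapped the others.

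Cdkn1a was more scattered in eWAT and liver. In eWAT the lowest, median and highest mouse had 17.5, 23.8 and 37.4 TPM in GC_WT, 13.5, 51.4 and 83.1 in FL_WT, and 31.9, 46.1 and 96.9 in GC_KO, and the FL_KO mice had 43.5, 62.9, 63.5, 67.4 and 71.0. The lowest mouse of FL_KO was above the highest of GC_WT, but FL_WT spanned both. Neither FL_WT against GC_WT (log2 fold change 0.79, adjusted p = 0.086) nor GC_KO against GC_WT (0.92, adjusted p = 0.109) passed the test. In liver the values were 8.24, 9.75 and 13.2 TPM in GC_WT, 3.08, 8.09 and 16.4 in FL_WT, 9.38, 14.6 and 37.6 in GC_KO, and 14.9, 15.1, 23.3, 40.0 and 42.6 in FL_KO. The FL_KO mice overlapped FL_WT only at its upper end, and their difference (log2 fold change 1.48) had an adjusted p of 0.0666 with edgeR and 0.0204 with limma on log2(TPM + 1).

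**Figure D2:**
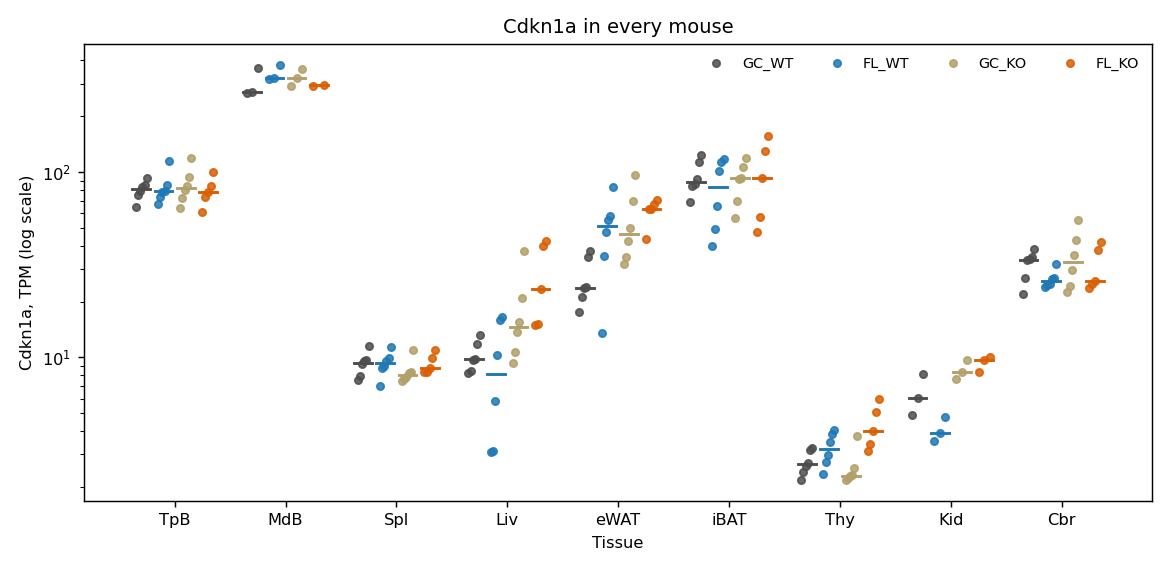
TPM of Cdkn1a (log axis) in 9 tissues, 1 point per mouse, coloured by group (GC_WT, FL_WT, GC_KO and FL_KO), with a line at the median of each group. The groups overlap in TpB, Spl, iBAT and Cbr. The FL_WT mice are all above the FL_KO mice in MdB and all below them in Kid. Mice of 1 group scatter widely in Liv and eWAT.

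The comparisons were made in each tissue with edgeR's quasi-likelihood test and a Benjamini-Hochberg adjusted p under 0.05 over all genes of the tissue. They were flight against ground in WT and in KO mice, and KO against WT on the ground and in flight. Fold changes are given on the log2 scale with their standard error. The p-values measure the spread between mice, and since these are bulk tissues, fewer cells of a type and less RNA per cell cannot be told apart. The median fold change of the p53 targets was near 0 in each comparison, as it was for all genes. In FL_WT against GC_WT, 5 of the 86 pairs were called higher and 4 lower, while 3.23% of the 140842 tested pairs of all genes and tissues were called higher and 3.32% lower, and the median log2 fold change of the targets was −0.02 against 0.00 for all genes. In FL_KO against GC_KO, 3 of 86 were higher and 5 lower, against 4.43% and 4.48% of all genes, with a median of 0.01. The flight calls of the 10 genes thus went in both directions and were not far from the share of all genes.

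The genotype comparisons gave fewer calls. In GC_KO against GC_WT, 1 of 86 pairs was higher and 1 lower (0.836% and 0.814% of all genes), and in FL_KO against FL_WT 1 was higher and 2 were lower (0.5% and 0.855% of all genes). A test of whether flight acted differently in KO and WT mice called 0 of the 86 pairs with edgeR, as well as 0% of all genes. Of the 86, 2 had an unadjusted p under 0.05 in this interaction test: Cdkn1a in Kid (0.78 on the log2 scale) and Bax in eWAT (−0.28). The smallest adjusted p of any target was 0.485 with edgeR. A flight effect seen in 1 genotype and not in the other is therefore not shown to differ between them.

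The flight calls fell in 3 tissues, eWAT, iBAT and Thy. In WT mice 3 of 10 tested targets were called in eWAT (13.4% of all genes there), 3 of 10 in iBAT (19.2%) and 3 of 9 in Thy (22.8%). In KO mice it was 1 of 10 in eWAT (7.71%), 3 of 10 in iBAT (33.5%) and 4 of 9 in Thy (38.2%). The genotype calls on the ground fell in Thy (1 of 9, with 3.81% of all genes) and Kid (1 of 9, with 1.61%), and those in flight in Liv (1 of 10, with 3.65%), eWAT (1 of 10, with 1.06%) and Kid (1 of 9, with 1.83%). No target was called in TpB, MdB, Spl or Cbr in any comparison. Few genes were called there at all. In flight it was 0% of all genes in TpB and MdB, at most 0.0244% in Cbr and at most 2.26% in Spl. Between genotypes it was at most 0.203% in TpB, 0.244% in MdB, 0.836% in Cbr and 1.16% in Spl.

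The direction depended on the scaling in some tissues. edgeR sets the bulk of genes to no change, whereas on the TPM scale the median gene was itself shifted in flight by 0.31 in WT and 0.43 in KO mice in iBAT, by 0.18 and 0.16 in Thy, by 0.19 and 0.10 in TpB and, in KO mice, by 0.15 in Liv. Between KO and WT mice it was shifted by −0.11 in Thy on the ground and in flight. Tested as log2(TPM + 1) with limma, the targets had 8 calls higher and 0 lower in FL_WT against GC_WT and 7 higher and 3 lower in FL_KO against GC_KO. With the same values centred on the median gene of each library, an alternative chosen after seeing the data, the split was 5 higher and 3 lower in WT and 2 higher and 3 lower in KO mice. The values of the called pairs are given below as counts-per-million (CPM) with edgeR's normalisation, the scale of the main test, as lowest, median and highest of a group of 6 or as each mouse of a smaller group.

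**Figure D3:**
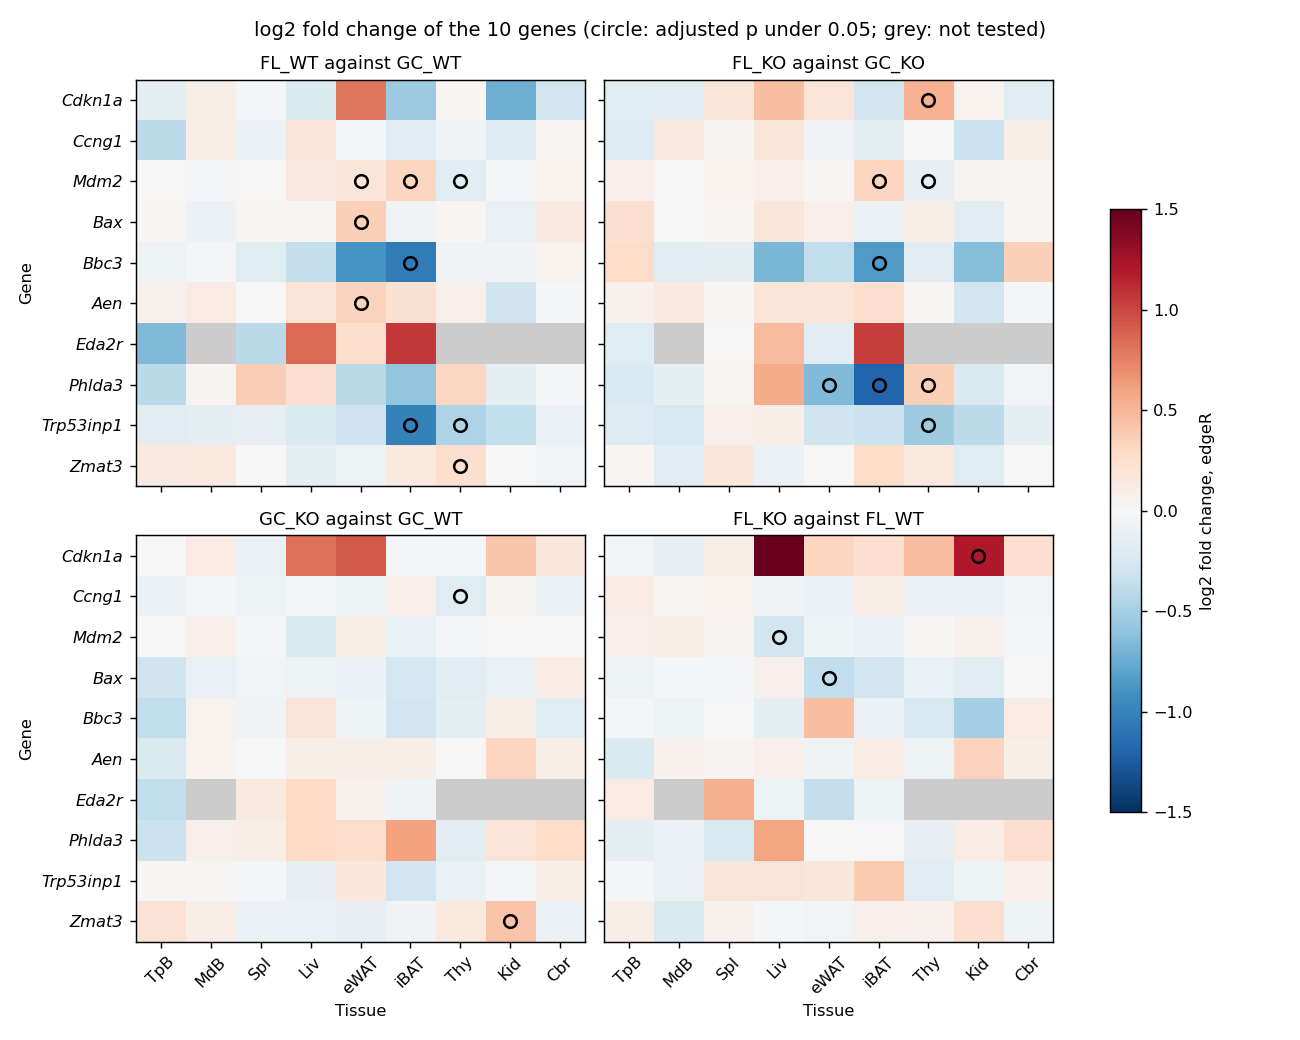
Log2 fold change (edgeR, colour scale from blue for lower to red for higher) of the 10 p53 target genes (rows) in 9 tissues (columns) for the 4 comparisons, with a circle on each called pair and grey for pairs not tested. The 9 flight calls in WT and 8 in KO mice lie in the eWAT, iBAT and Thy columns and take both signs.

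Among the genes of the cell cycle, Cdkn1a had its clearest difference in kidney. FL_KO mice stood at 10.9, 11.1 and 12.8 CPM and FL_WT mice at 4.63, 4.63 and 5.89, so the groups did not overlap, and Cdkn1a was 2.29-fold higher in FL_KO (log2 fold change 1.20 ± 0.18, adjusted p = 0.00223). The ground groups stood at 6.38, 8.13 and 10.6 (GC_WT) and 10.3, 10.8 and 12.5 CPM (GC_KO), which overlapped. FL_WT was thus below and FL_KO about level with its ground group, but neither flight difference in kidney was called for Cdkn1a (FL_WT against GC_WT −0.73, adjusted p = 0.273). The summed TPM of 9 glucocorticoid response genes, a list that was examined since Cdkn1a may respond to steroids, also varied with mouse number in kidney. It was 566, 379 and 404 in FL_WT mice 5, 8 and 10, and 954, 809 and 475 in FL_KO mice 1, 2 and 11. These groups were not balanced by mouse number. Of the list 0 of 9 were called, and its part in the result was not tested.

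Cdkn1a rose in the thymus of KO mice in flight: the FL_KO mice had 5.84, 5.84, 6.55, 9.05 and 11.1 CPM against 4.57, 5.08 and 6.90 in GC_KO (0.52 ± 0.17, adjusted p = 0.0202). The groups overlapped, the 2 highest mice carried most of the difference, and the call was lost without FL_KO mouse 11 (adjusted p = 0.057) or 12 (0.106). In WT thymus the 3 values were 4.17, 5.38 and 6.59 in GC_WT and 4.32, 5.67 and 6.78 in FL_WT, nearly the same. Ccng1 was lower in the thymus of GC_KO mice (106, 116 and 122 CPM) than of GC_WT mice (119, 134 and 137; −0.18 ± 0.05, adjusted p = 0.0296). These 2 groups overlapped slightly, and the call was lost on the TPM scale and when any of 7 single mice was left out (largest adjusted p = 0.0881). Without the 3 muscle-rich libraries, an alternative added after seeing the data, Ccng1 was also called lower in iBAT in flight, in WT (−0.25, adjusted p = 0.0436) and in KO mice (−0.29, adjusted p = 0.0116).

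Mdm2, the feedback inhibitor of p53, was the gene with the most calls, 6 of the 22, and all were small. In iBAT it rose in flight in both genotypes. WT mice had 23.4, 27.4 and 31.7 CPM on the ground and 31.4, 34.5 and 35.0 in flight (0.32 ± 0.09, adjusted p = 0.0191), and KO mice 20.3, 23.8 and 31.7 on the ground and 29.95, 31.2, 31.9, 32.0 and 33.1 in flight (0.32 ± 0.10, adjusted p = 0.0146). In both genotypes the groups overlapped only through the highest ground mice. On the TPM scale the rise was larger (0.60 and 0.71). With no filter on low counts neither was called (adjusted p = 0.059 and 0.0563), and the call in KO mice was also lost in a fit of the 2 groups alone (0.0601). In eWAT Mdm2 rose in WT mice, from 38.5, 42.0 and 44.8 CPM to 43.4, 47.9 and 51.0 (0.18 ± 0.05, adjusted p = 0.0308), with an overlap. This call was lost when any of 6 single mice was left out (largest adjusted p = 0.0643) and under 1 of the alternative settings. The call in WT iBAT was lost without any of 2 single mice (0.0626).

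In thymus Mdm2 was lower in flight under the main scaling. WT mice had 109, 121 and 129 CPM on the ground and 102, 108 and 113 in flight (−0.16 ± 0.04, adjusted p = 0.0106), and KO mice 115, 118 and 126 on the ground and 102, 105, 110, 113 and 113 in flight (−0.13 ± 0.05, adjusted p = 0.0328). On the TPM scale the sign was the opposite in WT (0.07) and KO mice (0.13), so the direction rests on the scaling, and the call in KO mice was also lost when any of 12 single mice was left out (largest adjusted p = 0.094). It was lost under 3 further settings that kept its direction. In liver Mdm2 was lower in FL_KO (31.0, 32.1, 35.1, 35.9 and 36.1 CPM) than in FL_WT mice (38.0, 40.5 and 44.1), without overlap (−0.27 ± 0.06, adjusted p = 0.0184). It was not called on the TPM scale, nor without any of 2 single mice (largest adjusted p = 0.058). The ground mice showed 32.9, 37.9 and 41.0 CPM in GC_WT and 29.7, 32.3 and 34.6 in GC_KO, which overlapped.

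Of the genes of apoptosis, Bbc3 fell and Bax and Aen rose, each in adipose tissue. Bbc3 in iBAT had 4.37, 5.30 and 5.49 CPM in GC_WT and 2.08, 2.45 and 2.85 in FL_WT, with no overlap (−1.05 ± 0.19, adjusted p = 0.000483), which was the largest fall in WT mice among the targets. In KO mice it fell from 2.86, 4.12 and 5.77 CPM to 1.35, 1.62, 2.39, 2.56 and 3.63, with an overlap (−0.85 ± 0.20, adjusted p = 0.00257). Both calls held without the 3 muscle-rich libraries (adjusted p = 0.00223 and 0.00592). The call in KO mice was lost with limma on log2(TPM + 1) with no filter on low TPM (−0.30, adjusted p = 0.169). The summed TPM of erythroid markers in iBAT moved alongside, at 350 to 669 in GC_WT against 185 to 284 in FL_WT and 285 to 594 in GC_KO against 222 to 336 in FL_KO, and 4 of 4 tested erythroid markers were called lower in both genotypes. The summed macrophage markers were 8.70 to 23.97 in GC_WT against 15.1 to 29.5 in FL_WT, with 0 of 6 called, and 7.27 to 13.2 in GC_KO against 15.2 to 36.1 in FL_KO, with 4 of 6 called higher. The part of either in the results was not tested.

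Bax rose in the eWAT of WT mice in flight, from 13.2, 14.6 and 15.7 CPM to 16.4, 18.8 and 21.9, with no overlap (0.36 ± 0.07, adjusted p = 0.00221). In KO mice the eWAT values were 12.3, 13.7 and 15.4 on the ground and 13.04, 14.3, 14.7, 15.1 and 15.6 in flight, close to each other. Bax was lower in FL_KO than in FL_WT eWAT, without overlap (−0.37 ± 0.08, adjusted p = 0.015). This call was lost without FL_KO mouse 2 (adjusted p = 0.050) and under 3 of the alternative settings, among them the inclusion of mouse 04 (0.143). Aen rose in the same tissue in WT mice, from 22.8, 26.9 and 27.5 CPM to 30.7, 32.1 and 38.5, again without overlap (0.33 ± 0.08, adjusted p = 0.0105). The KO mice had 21.7, 29.6 and 30.9 CPM of Aen on the ground and 27.9, 29.4, 32.8, 33.3 and 35.8 in flight, and were not called. The summed TPM of macrophage markers in eWAT was 259 to 378 in GC_WT and 391 to 746 in FL_WT, without overlap, and 3 of 7 tested markers were called higher and 1 lower. In KO mice these sums overlapped (293 to 420 against 294 to 489), with 0 of 7 called, and the part of these cells in the results for Bax and Aen was not tested. Eda2r was called in none of the 5 tissues in which it was tested.

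Phlda3 fell in both adipose tissues of KO mice in flight. In iBAT it was 146, 239 and 323 CPM in GC_KO and 68.5, 93.5, 111, 114 and 130 in FL_KO, without overlap (−1.19 ± 0.27, adjusted p = 0.00174, and 0.00415 without the muscle-rich libraries). On the TPM scale the fall was smaller (−0.70), with an adjusted p of 0.0377, or 0.0946 with no filter on low TPM. In eWAT it was 223, 281 and 301 CPM in GC_KO and 132, 161, 179, 184 and 202 in FL_KO, again without overlap (−0.66 ± 0.15, adjusted p = 0.0108). The WT mice were in the same range and more mixed, with 80.5, 154 and 261 CPM on the ground and 81.4, 98.4 and 140 in flight in iBAT, and 183, 231 and 263 against 107, 166 and 247 in eWAT. In thymus Phlda3 had 7.99, 12.0 and 14.2 CPM in GC_KO and rose to 12.3, 13.8, 16.2, 16.4 and 17.5 in FL_KO (0.35 ± 0.13, adjusted p = 0.037). The thymus groups overlapped, as did those of WT mice (10.4, 13.3 and 16.4 against 14.2, 16.6 and 18.7), which were not called, and the call in KO mice was lost when any of 6 single mice was left out (largest adjusted p = 0.111). It was lost also under 3 of the alternative settings.

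The iBAT level of Phlda3 also split by mouse number within the KO groups, for which the labels give no meaning. Ground mice 1 to 4 had 118 to 135 TPM and mice 9 to 12 had 243 to 276, while flight mice 1 and 2 had 69.5 to 94.3 and mice 9 to 12 had 122 to 158. Within each set of numbers the flight mice were below the ground mice. Bbc3 in iBAT split alike, with 1.82 to 2.37 TPM against 2.73 to 3.71 on the ground and 1.07 to 1.28 against 2.05 to 3.45 in flight. For Bbc3 the flight mice were below the ground mice in the lower set only, and the sets overlapped in the higher one.

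**Figure D4:**
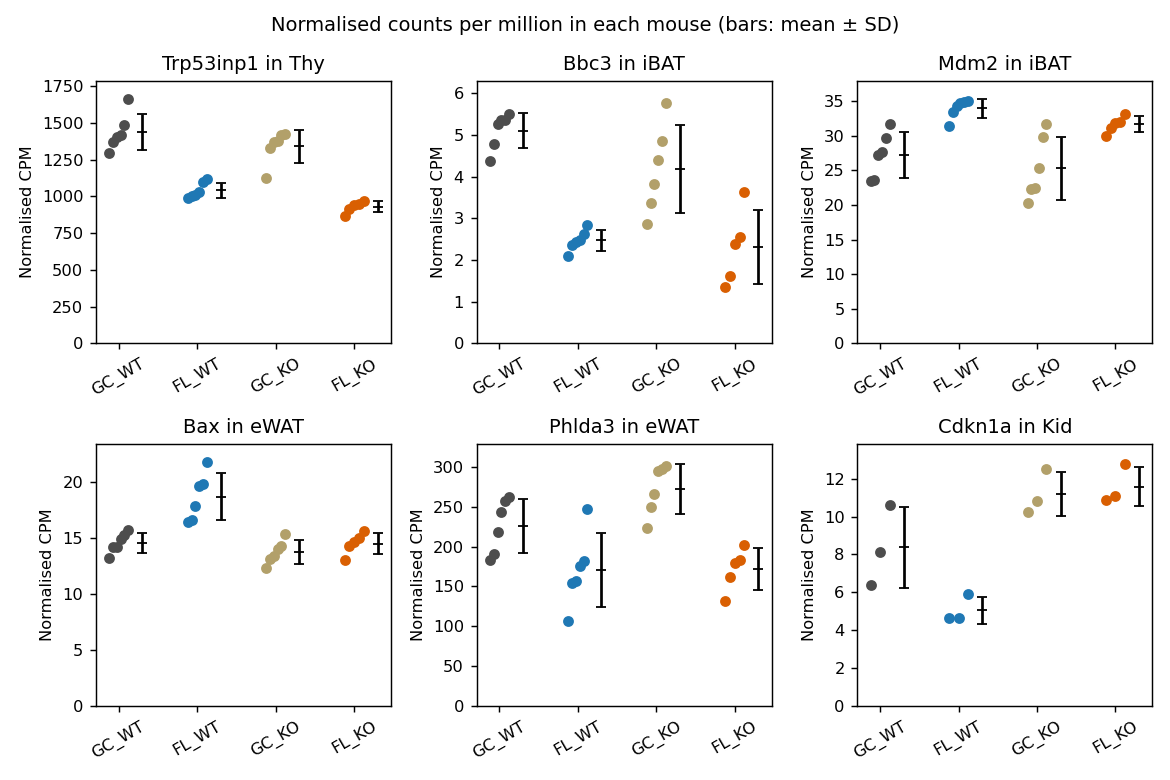
Normalised CPM (axes from 0) of 6 called pairs of p53 target gene and tissue, 1 point per mouse in GC_WT, FL_WT, GC_KO and FL_KO, with the mean and 1 SD beside them. Trp53inp1 in Thy, Bbc3 in iBAT and Bax in eWAT separate FL_WT from GC_WT without overlap, Phlda3 in eWAT separates FL_KO from GC_KO, and Cdkn1a in Kid separates FL_KO from FL_WT.

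Trp53inp1 had the smallest adjusted p of all targets, in thymus, where it is also most abundant. WT mice had 1298, 1412 and 1662 CPM on the ground and 992, 1022 and 1117 in flight (−0.47 ± 0.06, adjusted p = 9.38e-06), and KO mice 1124, 1375 and 1426 on the ground and 869, 917, 944, 952 and 970 in flight (−0.53 ± 0.06, adjusted p = 1.10e-06). In neither genotype did the groups overlap in CPM. On the TPM scale the fall was smaller (−0.23, adjusted p = 0.0501 in WT and −0.26, adjusted p = 0.0382 in KO mice), and with no filter on low TPM neither was called (0.0984 and 0.0639). In the same thymuses all 10 tested proliferation genes were called lower in both genotypes, with sums of 615 to 825 TPM in GC_WT against 444 to 703 in FL_WT and 534 to 813 in GC_KO against 477 to 540 in FL_KO. Of 7 markers of CD4+CD8+ double-positive thymocytes 6 were lower in both genotypes (2414 to 2895 against 1998 to 2459 TPM in WT and 1685 to 2697 against 1574 to 1801 in KO mice), and 2 of 7 macrophage markers were higher in WT and 7 of 7 in KO mice. Of 8 markers of thymic stroma 2 were higher in WT (Epcam and Pdgfrb) and 3 in KO mice (these and Krt5), with sums of 179 to 284 TPM in GC_WT against 244 to 351 in FL_WT and 126 to 257 in GC_KO against 243 to 287 in FL_KO. The part of these cells in the results for Trp53inp1, Mdm2, Cdkn1a, Phlda3 and Zmat3 in thymus was not tested.

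In iBAT Trp53inp1 fell in WT mice, from 20.02, 45.7 and 67.3 CPM to 16.6, 21.2 and 34.8, with a wide overlap (−1.01 ± 0.34, adjusted p = 0.0394). The call was lost without the 3 muscle-rich libraries (adjusted p = 0.146), on the TPM scale and when any of 9 single mice was left out (largest adjusted p = 0.0928). In KO mice the values were 14.5, 38.4 and 64.3 CPM on the ground and 20.2, 22.2, 23.9, 36.7 and 47.1 in flight, with no call. Zmat3 rose in the thymus of WT mice from 20.3, 23.4 and 26.9 CPM to 22.0, 28.9 and 31.1 (0.24 ± 0.08, adjusted p = 0.0355), with an overlap. The call was lost when any of 10 single mice was left out (largest adjusted p = 0.119) and under 2 of the alternative settings. In kidney Zmat3 was higher in GC_KO (37.6, 37.8 and 37.8 CPM) than in GC_WT (25.3, 27.6 and 31.1), without overlap (0.43 ± 0.09, adjusted p = 0.0227), and this call too was lost on the TPM scale and without any of 5 single mice (largest adjusted p = 0.123). In flight the kidneys had 27.2, 28.3 and 28.8 CPM in FL_WT and 30.3, 33.1 and 36.5 in FL_KO, which did not overlap either but were not called.

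In liver no flight difference was called for a target (3.45% of all genes in WT and 3.34% in KO mice), and the mice of a group were far apart. Trp53inp1 ranged from 11.7 to 36.2 TPM in GC_WT, 13.35 to 32.8 in FL_WT, 13.75 to 36.2 in GC_KO and 11.75 to 47.9 in FL_KO. In FL_KO the mice 1 and 2 stood apart from mice 9, 11 and 12, with 40.0 and 42.6 TPM of Cdkn1a against 14.9 to 23.3 and with 47.9 and 46.0 TPM of Trp53inp1 against 11.75 to 14.6. Bbc3 had the opposite order in these livers, with 0.93 and 1.47 TPM in mice 1 and 2 and 2.29 to 6.93 in the others. In GC_KO livers the mice 1, 2 and 4 were likewise above mice 9, 11 and 12 for Trp53inp1 (25.6 to 36.2 against 13.75 to 16.0), but not for Cdkn1a (10.7 to 21.0 against 9.38 to 37.6). The summed TPM of the 9 glucocorticoid response genes split alike in these livers, at 1925 and 1795 in FL_KO mice 1 and 2 against 335 to 484 in the others, and at 717 to 940 in GC_KO mice 1, 2 and 4 against 330 to 433 in the others. The split of this list was not confined to KO mice. FL_WT livers had 722, 841 and 1282 in mice 3, 5 and 6 against 255, 403 and 323 in mice 7, 8 and 10. In GC_WT livers these sets overlapped (390 to 528 against 269 to 402). In FL_WT iBAT they stood at 853 to 923 against 379 to 483. These sets of mice were noticed in the values, and the part of that list was not tested.

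**Figure D5:**
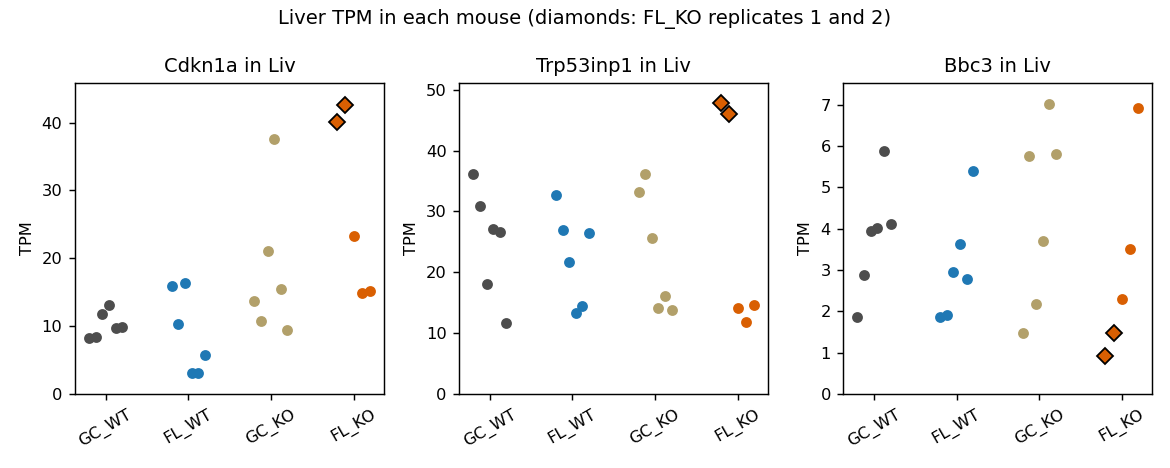
TPM (axes from 0) of Cdkn1a, Trp53inp1 and Bbc3 in liver, 1 point per mouse in GC_WT, FL_WT, GC_KO and FL_KO, placed within a group by mouse number, with diamonds for FL_KO mice 1 and 2. The diamonds are the highest of their group for Cdkn1a (40.0 and 42.6 TPM) and Trp53inp1 (47.9 and 46.0) and the lowest for Bbc3 (0.93 and 1.47).

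Other genes of the p53 pathway were examined as lists. Of 30 further p53 targets, 5 of 258 tested pairs of gene and tissue were higher and 9 lower in FL_WT against GC_WT (median log2 fold change 0.00), and 13 were higher and 13 lower in FL_KO against GC_KO (median 0.01). As with the 10 genes, both directions were seen. In FL_WT against GC_WT 3.23% of all tested pairs were called higher and 3.32% lower, and in FL_KO against GC_KO 4.43% and 4.48%. In WT and KO mice in flight, 22.8% and 38.2% of all genes were called in Thy. The shares were 19.2% and 33.5% in iBAT and 13.4% and 7.71% in eWAT. In the thymus of WT mice, Fas, a death receptor (−0.49, adjusted p = 8.92e-06), Gtse1, a regulator of mitosis that is highest in dividing cells (−0.61, adjusted p = 2.61e-05), and Btg2, an antiproliferative protein (−0.37, adjusted p = 0.000132), were lower, of which Btg2 was not called on the TPM scale, and Sesn3 was higher (0.25, adjusted p = 0.000691). In KO thymus Gtse1 (−0.72, adjusted p = 3.13e-06), Fas (−0.41, adjusted p = 2.47e-05) and Btg2 (−0.42, adjusted p = 2.52e-05) were lower and Sesn3 was higher (0.33, adjusted p = 1.74e-05), and the call of Fas was lost on the TPM scale.

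Gdf15, a stress cytokine, had the largest rise of the list in WT mice, 2.17 on the log2 scale in eWAT (adjusted p = 0.00375). In KO eWAT the repair gene Xpc (0.40, adjusted p = 0.00849) and the autophagy gene Dram1 (0.56, adjusted p = 0.0132) were higher. In iBAT, Sesn1, a stress-inducible inhibitor of mTORC1, was lower in both genotypes (−0.65, adjusted p = 7.55e-05 in WT and −0.54, adjusted p = 0.000394 in KO mice), as was Rps27l (−0.33, adjusted p = 0.0138 and −0.26, adjusted p = 0.0411), and Sesn2 (1.13, adjusted p = 0.00426) and Cmbl (0.87, adjusted p = 0.0113) were higher in KO mice. On the TPM scale the calls of Sesn1 in KO and of Rps27l in WT mice were lost. In liver Ei24 was higher in WT (0.24, adjusted p = 0.0251) and Perp, a membrane protein of cell junctions, in KO mice in flight (0.32, adjusted p = 0.027). In the genotype comparisons 1 of 258 pairs was called on the ground, Pmaip1, the BH3-only protein NOXA, in spleen (−0.40, adjusted p = 0.0499), and none in flight. Of all tested pairs, 1.65% were called on the ground and 1.35% in flight. The call of Pmaip1 was lost under 7 of 9 alternatives (adjusted p up to 0.159) and when any of 18 of 23 single mice was left out (up to 0.151).

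Of 12 regulators of p53, 7 of 93 pairs were higher and 2 lower in flight in WT mice (3.23% and 3.32% of all pairs). In KO mice 6 were higher and 1 lower (4.43% and 4.48% of all pairs). The calls of regulators lay in eWAT, iBAT and Thy, the tissues with the largest share of all genes called in flight. In thymus the kinase Hipk2, which phosphorylates p53 (0.41, adjusted p = 0.000182 in WT and 0.47, adjusted p = 2.32e-05 in KO mice), and Atm, the kinase that senses DNA breaks (0.17, adjusted p = 0.00394 and 0.19, adjusted p = 0.00145), were higher in both genotypes. So were Trp63 (0.51, adjusted p = 0.00433 in WT and 0.52, adjusted p = 0.00276 in KO mice) and Trp53bp1, a protein of break repair (0.21, adjusted p = 0.00714 and 0.36, adjusted p = 3.60e-05). In iBAT Usp7, which removes ubiquitin from Mdm2 and p53 (0.23, adjusted p = 0.00439 and 0.33, adjusted p = 9.52e-05), and Trp53bp1 (0.46, adjusted p = 0.0055 and 0.53, adjusted p = 0.00134) were higher in both genotypes. In WT eWAT Trp63 (−1.52, adjusted p = 0.00281) and Usp7 (−0.18, adjusted p = 0.0118) were lower and the kinase Chek2 was higher (0.38, adjusted p = 0.0235), and that of Usp7 was lost on the TPM scale. No regulator was called in the genotype comparisons with edgeR, where 1.65% of all pairs were called on the ground and 1.35% in flight.

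Among 5 other inhibitors of cyclin-dependent kinases, 6 of 43 pairs were lower and 0 higher in WT mice in flight (3.32% and 3.23% of all pairs). In KO mice 6 were lower and 3 higher (4.48% and 4.43% of all pairs). In thymus Cdkn2d (−0.70, adjusted p = 7.81e-07 in WT and −0.78, adjusted p = 1.35e-07 in KO mice), Cdkn1b (−0.37, adjusted p = 4.31e-06 and −0.42, adjusted p = 4.55e-07) and Cdkn2c (−0.75, adjusted p = 2.08e-05 and −0.88, adjusted p = 2.49e-06) were lower in both genotypes, and Cdkn1b was not called on the TPM scale. Cdkn2c was lower also in WT eWAT (−0.95, adjusted p = 0.00622) and in KO spleen (−0.51, adjusted p = 0.0166), but higher in KO iBAT (0.83, adjusted p = 0.00303). On the ground, 1 pair differed between genotypes, Cdkn1c in eWAT (0.67, adjusted p = 0.025), while 1.65% of all pairs did. In the Bcl2 family, which sets the threshold of apoptosis, 2 of 73 pairs were higher and 2 lower in WT flight (3.23% and 3.32% of all pairs). In KO flight 4 were higher and 2 lower (4.43% and 4.48% of all pairs). In thymus the survival genes Bcl2l1 (−0.44, adjusted p = 0.00068 in WT and −0.54, adjusted p = 6.10e-05 in KO mice) and Bcl2 (0.35, adjusted p = 0.00479 and 0.45, adjusted p = 0.000331) went in opposite directions in both genotypes, the former without a call on the TPM scale. In iBAT Bid, which activates Bax, was higher in WT (0.71, adjusted p = 0.0186) and KO mice (1.19, adjusted p = 0.000198).

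The pattern of Cdkn1a over the 36 means of tissue and group, compared as log2(TPM + 1), was most like that of Kctd15 (Pearson r = 0.921), Angptl1 (0.908), Alg14 (0.883), Irs1 (0.878) and Plekhh3 (0.870) among 17835 genes. The 5 genes share with Cdkn1a a higher level in bone and eWAT than in most other tissues, and all but Irs1 (5.29 TPM) also in iBAT. Their median in MdB was 26.4 TPM for Kctd15, 13.6 for Angptl1, 15.7 for Alg14, 29.1 for Irs1 and 11.6 for Plekhh3, and in Thy 2.37, 0.13, 3.73, 0.78 and 1.20. In eWAT it was, in the same order, 12.86, 2.44, 14.83, 16.95 and 9.47. Of the other p53 targets compared, Phlda3 was the most like it (r = 0.720, rank 234 of the 17835 genes). The rest were far less like it: r was 0.281 for Ccng1 (rank 5675), 0.238 for Aen, 0.193 for Zmat3, 0.0767 for Bax, 0.0593 for Mdm2, 0.0225 for Bbc3 and −0.337 for Trp53inp1. The 36 means share mice within a tissue group and are no independent samples, so no p is given.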

How the data were processed

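RNA-seq of 192 libraries (mouse, 9 tissues) was described by the submitters as single reads of an Illumina HiSeq2500, aligned to mm10 with STAR 2.6.1 and counted with RSEM 1.3.1 on a GENCODE annotation; the strand setting is not given in the sources used here. The deposited estimated counts (expected counts per gene, made by the authors with RSEM, not normalised) were rounded to whole numbers, and the TPM values deposited by the authors were used for levels. The 192 FPKM columns were not used. The 8 libraries of flight mouse 04 were left out, which left 184.

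In each tissue, genes with low counts were dropped with filterByExpr, counts were scaled by TMM and the 4 groups were fitted together with edgeR 4.0.16 (quasi-likelihood test, R 4.3.3), and p-values were Benjamini-Hochberg adjusted over all genes of the tissue. A pair of gene and tissue was called at an adjusted p under 0.05. The code was tested on simulated data. CPM are edgeR's counts-per-million with TMM factors. The fits were repeated with limma 3.58.1 (log2 of TPM plus 1 or 0.1) and DESeq2 1.42.0, and with other filters and factors, inclusion of mouse 04, fits of the compared groups alone, a library set term in TpB, a block on the replicate number and leaving out each mouse. Fits without 3 muscle-rich iBAT libraries and limma centred on the median gene were chosen after seeing the data.

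The 10 genes and all lists were chosen with earlier results of these data known. Values by mouse were given for Cdkn1a in every tissue and for up to 8 called pairs per comparison with the smallest adjusted p (the ninth in WT flight, Trp53inp1 in iBAT, was added since it lost its call). Of each list, up to 3 called genes per tissue and comparison with the smallest adjusted p could be named, and the other genotype's value was added where it was called as well. Same-numbered FL and GC mice are different animals. The correlation of their deviations from the group means exceeded 0.1 in every pair, among tissues with 3 or more pairs, only in KO liver (5 pairs, 0.222 to 0.369). No p53 target was called there in flight against ground, with or without the block on the number. The block allows no comparison of genotypes, so the call of Mdm2 in liver between FL_KO and FL_WT was not examined with it.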

Additional observations from a re-analysis of the deposited data

Results flagged for a closer look

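In 12 of 280 groups of 4 to 10 mice, 1 mouse stood apart from the others in the TPM of a p53 target by Dixon's test, and chance alone gives about 1 in 20. Cdkn1a was high in FL_WT mouse 8 in TpB (115 TPM, the others 67.1 to 85.2), in GC_KO mouse 4 in Spl (10.95, the others 7.46 to 8.36), in GC_KO mouse 11 in Thy (3.78, the others 2.19 to 2.53) and in FL_WT mouse 6 in Cbr (32.1, the others 24.0 to 26.9). Ccng1 was high in GC_WT mouse 8 in Liv (16.8, the others 12.3 to 12.9). Bax was low in FL_KO mouse 2 in TpB (43.5, the others 53.1 to 56.3) and in eWAT (30.7, the others 34.3 to 35.1), and high in GC_WT mouse 6 in iBAT (10.7, the others 9.41 to 9.82). Bbc3 was high in FL_WT mouse 7 in eWAT (8.53, the others 4.54 to 5.92), and Aen in FL_WT mouse 3 in Thy (19.97, the others 13.9 to 15.7). Eda2r was high in FL_KO mouse 11 in iBAT (0.65, the others 0.09 to 0.16), the library with the highest muscle markers, and in FL_WT mouse 6 in Thy (0.44, the others 0.15 to 0.20).

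Flight mouse 04, which had an intestinal hemorrhage and was left out of all comparisons, lay above every kept mouse for Cdkn1a in Liv (72.4 TPM, the kept mice 3.08 to 42.6), Trp53inp1 in Liv (55.0, the kept mice 11.7 to 47.9) and Eda2r in Cbr (0.62, the kept mice 0.09 to 0.46).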

How the results depend on the processing

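Of the 22 calls of a p53 target, 5 were kept under every alternative and with every single mouse left out (Aen and Bax in eWAT and Bbc3 in iBAT in WT flight, Phlda3 in eWAT in KO flight and Cdkn1a in Kid between FL_KO and FL_WT), and 11 with every single mouse left out. Over all settings of the 22 calls, 566 of 669 kept their direction and call, 97 kept the direction alone and 6 had the opposite sign. These 6 were Mdm2 in Thy with limma on TPM, at 0.072, 0.0738 and 0.072 (log2(TPM + 1), log2(TPM + 0.1) and no filter on low TPM) in WT and 0.130, 0.133 and 0.130 in KO mice. Of the list genes, Bak1 in Thy turned likewise (0.054, 0.0563 and 0.054 in WT, 0.0569, 0.0605 and 0.0569 in KO mice), as did Cdkn2d in iBAT of KO mice (0.0223). The median gene of thymus and iBAT was itself shifted upward in TPM.

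With no filter on low counts, more genes were tested and the calls of p53 targets dropped to 5 in WT flight and 5 in KO flight. limma centred on the median gene gave 5 in KO flight. Between genotypes on the ground, where 2 were called, DESeq2 gave 4, limma 0 with each of the 3 TPM settings, centred limma 1 and a fit of the 2 groups alone 1. Between FL_KO and FL_WT, where 3 were called, limma with no TPM filter and a fit of the 2 groups alone each gave 1. The cause was not tested. Leaving out 1 mouse at a time gave 6 to 10 calls in WT flight, 5 to 8 in KO flight (5 without FL_KO mouse 12), 0 to 3 between genotypes on the ground (0 without GC_KO mouse 2 or GC_WT mouse 7, and 1 without GC_KO mouse 9, 11 or 12 or GC_WT mouse 3, 6 or 10), 2 to 4 between genotypes in flight, and 0 for the interaction. In MdB, the FL_KO mouse that remained alone was assumed to vary like the other groups.

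With a replicate block on the mouse number, possible in the 7 tissues with 12 numbers, WT flight had 13 calls, 5 higher and 8 lower, among them all 9 of the main result, with Bbc3 (adjusted p = 0.0174), Trp53inp1 (0.0195) and Phlda3 (0.0392) in eWAT and Phlda3 in iBAT (0.0341) added, all lower. KO flight had 7, of which 6 were shared. Same-numbered animals are different mice, so this is no paired design. Outside KO liver, their deviations from the group means still correlated over 0.1 in some pairs. These were 4 of 5 KO pairs in TpB and in iBAT and 4 of 6 WT pairs in Liv. Low counts of Eda2r kept it from being tested in 4 tissues.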

Other observations

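In the eWAT of KO mice, Bbc3 also differed by mouse number, for which the labels give no meaning. On the ground it was 5.38 to 6.54 TPM in mice 1, 2 and 4 and 12.1 to 17.8 in mice 9, 11 and 12, and in flight 3.73 to 4.31 in mice 1 and 2 and 8.77 to 11.5 in mice 9, 11 and 12. In iBAT, Trp53inp1 had the opposite order, with 10.1 to 12.9 TPM in ground mice 1, 2 and 4 against 3.21 to 5.67 in mice 9, 11 and 12, and 9.46 to 12.2 in flight mice 1 and 2 against 6.14 to 7.41 in mice 9, 11 and 12. These sets were noticed in the data and were not tested.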
